A study of Mus musculus with 16 samples.

Results

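The genes described here are 47 genes of DNA replication and S phase, the part of the cell cycle in which the genome is copied. They were listed by name for their parts in the replication machinery, and each was read from the probe set with the highest mean signal among those annotated with 1 gene symbol. Of the 47 genes, 45 were measured, among 22180 genes in all. Rfc4, a subunit of the clamp loader, and Ccne2, cyclin E2, are annotated here on probe sets with several symbols and were not analysed. The cells were group 2 innate lymphoid cells (ILC2s), lymphocytes of barrier tissues that lack antigen receptors and make type 2 cytokines, and their total RNA was read on 16 single-colour arrays. In the lung, 2 arrays were of ILC2s from untreated (naive) mice. The other lung arrays were of ILC2s from mice that had received IL-33, an alarmin cytokine that activates these cells, through the nose, with 3 arrays at day 4, 3 at week 2 and 2 at 4 months from the first dose. The lung-draining node, the mediastinal lymph node (mLN), gave 3 arrays at day 4 and 3 at week 2 from mice given IL-33 in the same way, with no naive mLN group among the samples. The lung samples are labelled C57BL/6J and the arrays are labelled as biological replicates, while the sources used here give neither the pooling of animals nor the sort gates. These comparisons address how much of the replication programme ILC2s express while activated, afterwards, and in the lung against its draining lymph node.

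DNA replication begins with licensing: the origin recognition complex, Cdc6 and Cdt1 load the Mcm2 to Mcm7 ring, the core of the replicative helicase, onto DNA in G1. At the start of S phase Cdc45 and the GINS complex join the ring and activate it, after which polymerase alpha with primase starts each strand, polymerases epsilon and delta extend it on the Pcna sliding clamp, and Fen1 and Lig1 join the pieces of the lagging strand. Many of these genes are transcribed at the G1 to S transition under E2F transcription factors, so that their mRNA is a common measure of cycling in lymphocytes. ILC2s divide slowly in resting tissue and expand after IL-33.

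Because E2F factors are known regulators of this programme, the promoters of the listed genes were searched for E2F letters. RefSeq sequence of GRCm38.p6 was at hand for 39 of the 47 genes. The table lists 1 transcript start for 33 of them and 2 or 3 for the other 6, and a listed start can lie inside the gene. In the 250 bases before any listed start, any of TTTCCCGC, TTTGGCGC, TTTCGCGC or TTTGCCGC, read on both strands, was found in 10 of the 39 genes (25.6%), against 2.16% of 27025 genes in the same table. Of 45 other replication genes with a promoter, 10 (22.2%) held the letters. CCAAT, the letters of NF-Y, was found in 24 of the 39 (61.5%), against 37.5% of all genes. The letters TTTGAA or TTCGAA, those of the CHR element of G2 and mitosis genes, were found in 9 (23.1%), against 19.6% of all genes. A match is a run of letters and not a bound site. Stretches around the E2F letters are shown for 5 genes that were higher at day 4 than in naive lung and for Orc1, which was not called, each 5′ to 3′ in the direction of the gene with the matched letters in capitals.
Mcm5: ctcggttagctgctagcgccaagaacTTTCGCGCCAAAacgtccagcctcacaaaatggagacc
Mcm6: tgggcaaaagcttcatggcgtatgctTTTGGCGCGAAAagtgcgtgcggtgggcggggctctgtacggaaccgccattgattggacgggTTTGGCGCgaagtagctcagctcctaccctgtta
Cdc6: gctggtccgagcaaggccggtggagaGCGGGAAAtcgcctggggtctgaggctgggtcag
Pola1: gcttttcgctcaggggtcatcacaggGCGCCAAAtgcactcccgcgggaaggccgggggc
Uhrf1: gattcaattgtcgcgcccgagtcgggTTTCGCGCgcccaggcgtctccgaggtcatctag
Orc1: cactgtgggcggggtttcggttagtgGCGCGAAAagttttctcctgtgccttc
The stretches lie at chr8:75109330-75109393 (plus strand) for Mcm5, chr1:128359719-128359841 (minus strand) for Mcm6, chr11:98907987-98908046 (plus strand) for Cdc6, chrX:93632260-93632319 (minus strand) for Pola1, chr17:56304102-56304161 (plus strand) for Uhrf1 and chr4:108579401-108579453 (plus strand) for Orc1. By the gene bounds of the same build, those of Mcm5 and Mcm6 lie before the gene, while those of Cdc6, Pola1, Uhrf1 and Orc1 lie inside it, before the listed start of a transcript. Mcm5 held 2 matches, which overlap on opposite strands 153 and 149 bases before the listed start, and Mcm6 held 3, of which the first and the second overlap likewise. Cdc6, Pola1, Uhrf1 and Orc1 held 1 each. The other members with E2F letters were Mcm7 and Dnmt1, where they lie inside the gene, and Gins3 and Rfc3, where they lie before it.

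The mean log2 signal of 9 ILC2 markers (among them Gata3, Il7r and Il5) lay between 9.05 and 9.62 on all arrays, but several of these genes, such as Il7r, Icos and Thy1, are also made by T cells, so that their mean does not tell the cell types apart. The naive and 4-month arrays had a narrower spread of signals, with a mean interquartile range of 2.42 and 2.26 on the log2 scale, against 2.88 to 2.99 in the other groups. Replicate arrays correlated at r = 0.937 in the naive and 0.947 in the 4-month group and at 0.977 or more in the others. For 8 measured T cell markers the mean lay at 6.47 and 6.68 in the naive group and at 4.63 to 5.07 in all other groups. Cd3e, a chain of the T cell receptor complex, stood at 8.99 and 9.37 in the naive group. Cd3g, another chain of it, did not follow that mean. It stood at 8.33 and 9.05 in naive lung, 8.94, 8.95 and 9.06 in day 4 lung and 8.82, 8.64 and 8.99 in day 4 mLN. At 4 months it stood at 7.10 and 7.60. For 13 macrophage markers it lay at 4.24 to 4.97 in the naive group, 4.49 to 5.83 at day 4, 4.12 to 5.40 at week 2 and 4.48 to 4.93 at 4 months in the lung, and 3.67 to 3.97 in the mLN, with no marker of either list at 0 on this log2 scale. Replicates 1 and 2 of day 4 lung, with replicate 3 of week 2 lung, had the highest macrophage means, and results that rest on them are given below without them as well. The other lung arrays still had means of 4.12 or more. Of single markers, Lyz2 stood at 9.67 on naive replicate 1 and Chil3 at 9.19 on day 4 lung replicate 3, while C1qa stood at 4.52 and 4.42 on these arrays. Leaving arrays out therefore does not remove macrophage transcripts from the lung arrays that remain. The files used here hold no detection call, and a log2 level of 3.73, the 40th percentile of all signals, was taken as the dim level in its place. Of the 45 genes, 9 had group means under it (Cdc6, Mcm10, Gins1, Pole, Pole2, Chaf1a, Exo1, Brca1 and E2f8), 26 means in all, and differences that involve these means are not shown to be between signals above background. In naive lung these were Cdc6, Gins1, Pole, Pole2 and Brca1. At week 2 they were Cdc6, Gins1, Chaf1a, Exo1, Brca1 and E2f8 in both tissues, Pole2 in the lung and Mcm10 in the mLN. Rises and falls of these genes are counted below where limma called them. In bulk RNA, fewer cells in S phase and less of each mRNA per cell cannot be told apart.

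ILC2s of the mLN at day 4 had the highest levels of the replication genes of any group. Their group mean was the highest for 43 of the 45 measured genes, against 14.0% of all genes, and the other two, Tk1 and E2f1, were highest in the lung at day 4. The mean log2 signal over the 45 genes was 6.20 to 6.57 on the 3 arrays of day 4 mLN and 5.65 to 5.77 on those of day 4 lung. It was 5.42 to 5.47 at week 2 in the mLN, 5.18 to 5.20 at week 2 in the lung, 5.0 and 5.06 in naive lung, and 4.79 and 4.96 at 4 months. These ranges did not overlap between any groups. Day 4 lung held the second place for 26 genes and week 2 mLN for 13. The lowest group mean was at 4 months for 23 genes and in naive lung for 12, and 25.0% and 16.3% of all genes had their lowest mean in those groups.

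**Figure D1:**
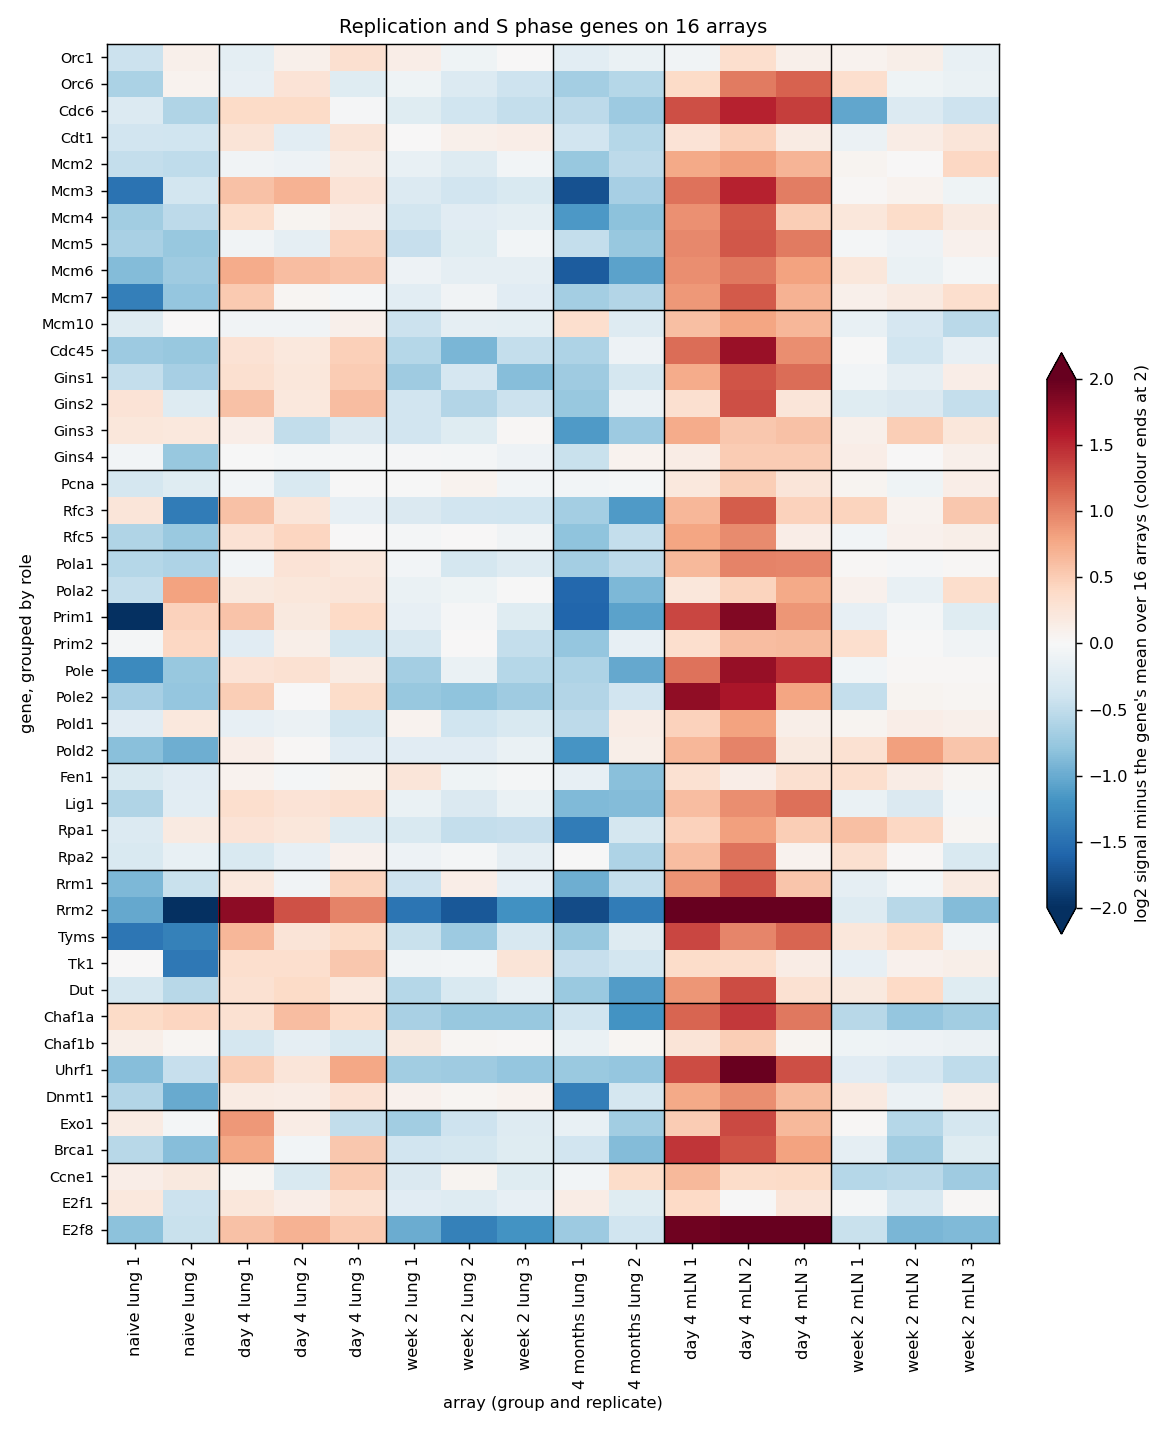
Heat map of the 45 measured replication genes (vertical axis, grouped by role) on the 16 arrays (horizontal axis, by group and replicate), coloured by the log2 signal minus the gene's mean over all arrays, with colours ending at 2. The 3 day 4 mLN arrays are the reddest columns, and day 4 lung comes next. The naive and 4-month columns are mostly blue and differ between their replicates in genes such as Prim1 and Mcm3.

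Between day 4 and naive lung, 21 of the 45 genes were higher and 0 lower at a limma adjusted p under 0.05, where 10.8% of all genes were higher and 5.73% lower. The median change of the 45 was 0.73 on the log2 scale, on which 1 is a 2-fold difference, against -0.06 over all genes. Between week 2 and day 4 in the lung 9 genes fell and 0 rose, with 1.39% of all genes lower and 0.419% higher, and a median of -0.37 against 0.01. In the mLN 19 genes fell and 0 rose from day 4 to week 2, with 1.18% of all genes lower and 0.528% higher, and a median of -0.83 against 0.00 over all genes. At day 4 the mLN stood above the lung in 12 genes and below it in 0, where 0.978% of all genes were higher and 1.35% lower. The median difference of the 45 was 0.69 against 0.01. At week 2, 0 of the 45 differed between mLN and lung, where 0.334% of all genes were higher and 0.446% lower. In limma 13 of them had an unadjusted p under 0.05 there, as did 2119 of all 22180 genes. With array weights 4 were called, for which no share of all genes is given here, so that this count is not read as a result about the members. The same holds for the counts under the other alternatives given below.

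**Figure D2:**
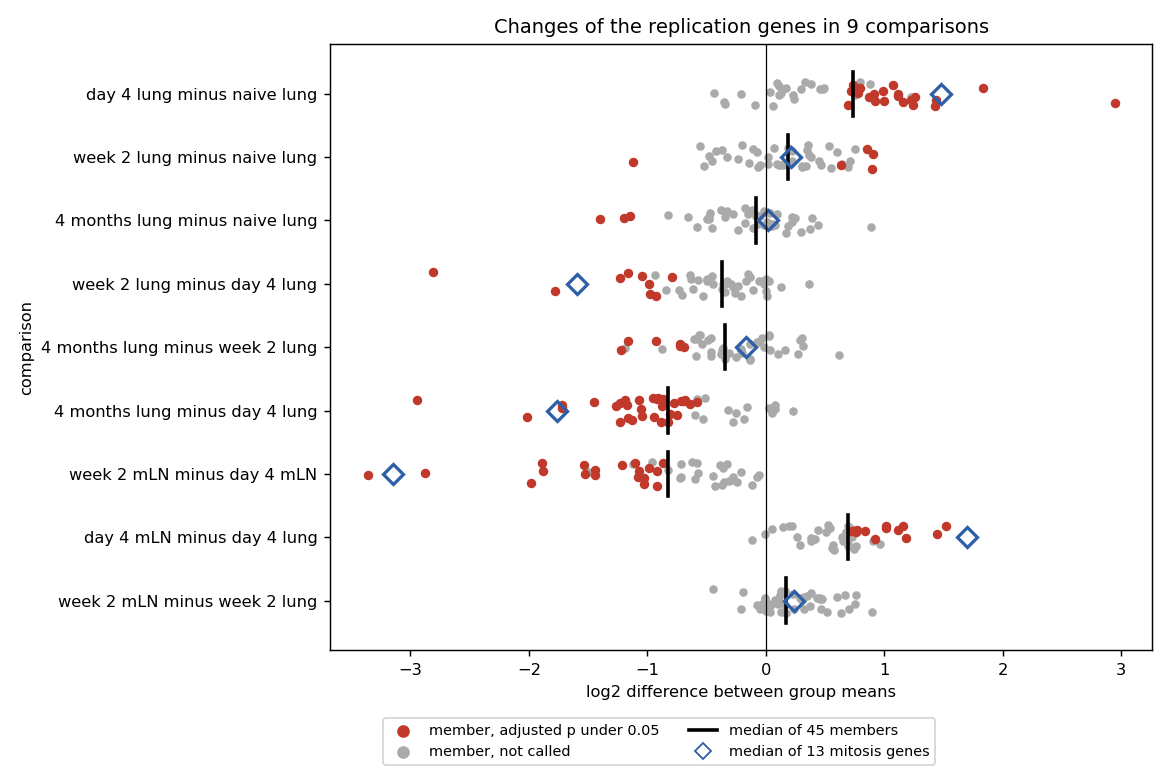
Log2 differences between group means (horizontal axis) of the 45 measured replication genes in 9 comparisons (vertical axis), 1 point a gene, red where limma's adjusted p was under 0.05. Black bars are the median of the 45 genes and blue diamonds the median of 13 mitosis genes. The medians lie at 0.73 for day 4 against naive lung, -0.83 for week 2 against day 4 mLN and 0.69 for mLN against lung at day 4, and in these comparisons the diamonds lie further from 0.

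All 10 licensing genes measured had their highest group mean in the day 4 mLN. Of these, 6 rose between naive and day 4 lung, 4 fell from day 4 to week 2 in the mLN, and 3 were higher in mLN than in lung at day 4. Mcm5 stood at 4.72 and 4.62 in naive lung, 5.30, 5.19 and 5.84 at day 4, 4.91, 5.13 and 5.32 at week 2 and 4.90 and 4.62 at 4 months. Mcm5 on the mLN arrays stood at 6.34, 6.62 and 6.42 at day 4 and 5.34, 5.27 and 5.46 at week 2. Mcm5, a subunit of the helicase ring, separated day 4 mLN from all other arrays, and day 4 lung from naive lung. It rose by 0.78 ± 0.21 at day 4 in the lung (adjusted p = 0.0179), stood 1.02 ± 0.19 higher in mLN than in lung at day 4 (adjusted p = 0.00491) and fell by 1.10 ± 0.19 by week 2 in the mLN (adjusted p = 0.00232). Cdc6 stood at 3.81 and 3.48 in naive lung, 4.47, 4.47 and 4.05 at day 4, 3.85, 3.69 and 3.61 at week 2 and 3.56 and 3.36 at 4 months. Cdc6 on the mLN arrays stood at 5.37, 5.63 and 5.47 at day 4 and 3.05, 3.81 and 3.67 at week 2. Cdc6 helps to load the ring, and its day 4 mLN arrays did not overlap those of any other group. The rise in the lung was 0.69 ± 0.22 (adjusted p = 0.0447), the difference between mLN and lung at day 4 was 1.16 ± 0.20 (adjusted p = 0.00325), and the fall by week 2 in the mLN was -1.98 ± 0.20 (adjusted p = 9.54e-06). One week 2 mLN array, replicate 1, lay below every other array.

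The other ring subunits followed with different sizes. Mcm6 stood at 6.45 and 6.59 in naive lung, 8.05, 7.93 and 7.88 at day 4, 7.21, 7.13 and 7.13 at week 2 and 5.64 and 6.24 at 4 months. Mcm6 on the mLN arrays stood at 8.24, 8.36 and 8.12 at day 4 and 7.53, 7.17 and 7.27 at week 2. Mcm6 rose by 1.43 ± 0.19 in the lung (adjusted p = 0.000136), and its difference between mLN and lung at day 4 was 0.29 ± 0.17 (95% interval -0.07 to 0.65), which was not called although the arrays did not overlap. Its level fell from day 4 to week 2 by 0.80 ± 0.17 in the lung and 0.92 ± 0.17 in the mLN, and from week 2 to 4 months by 1.22 ± 0.19 (adjusted p = 0.00132). Mcm3 stood at 4.55 and 5.65 in naive lung, 6.61, 6.71 and 6.29 at day 4, 5.75, 5.63 and 5.71 at week 2 and 4.28 and 5.36 at 4 months. Mcm3 on the mLN arrays stood at 7.11, 7.55 and 7.05 at day 4 and 6.04, 6.09 and 5.94 at week 2. The naive and the 4-month replicates of Mcm3 differed by over 1, and the lowest day 4 lung array lay above the highest of both groups; the rise at day 4 was 1.44 ± 0.31. Mcm4 stood at 6.14 and 6.32 in naive lung, 7.19, 6.90 and 7.0 at day 4, 6.47, 6.62 and 6.65 at week 2 and 5.69 and 6.03 at 4 months. Mcm4 on the mLN arrays stood at 7.76, 8.07 and 7.34 at day 4 and 7.06, 7.21 and 7.03 at week 2. Mcm4 rose by 0.80 ± 0.21 at day 4 and fell by 0.72 ± 0.21 from week 2 to 4 months. Mcm7 stood at 3.90 and 4.50 in naive lung, 5.80, 5.31 and 5.24 at day 4, 5.06, 5.20 and 5.05 at week 2 and 4.59 and 4.68 at 4 months. Mcm7 on the mLN arrays stood at 6.14, 6.51 and 5.97 at day 4 and 5.38, 5.46 and 5.62 at week 2. Mcm7 rose by 1.25 ± 0.22 at day 4 and was still 0.90 ± 0.22 above naive lung at week 2 (adjusted p = 0.0184). Mcm2 differed by 0.49 ± 0.18 between day 4 and naive lung, which was not called, and stood 0.76 ± 0.16 higher in day 4 mLN than in day 4 lung (adjusted p = 0.0134). Of the origin recognition complex, Orc1 had the smallest range of group means of the 45 genes, 0.31, and Orc6 differed by 0.91 ± 0.24 between the tissues at day 4 (adjusted p = 0.0539), which was not called. Cdt1, the partner of Cdc6 in loading, was called in 1 comparison, a fall of 0.58 ± 0.19 from day 4 to 4 months.

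Among 6 helicase activation genes, Cdc45 and Gins1 rose in the lung at day 4, and Cdc45 and Gins3 were higher in the mLN than in the lung. Cdc45 stood at 4.36 and 4.34 in naive lung, 5.39, 5.31 and 5.57 at day 4, 4.52, 4.19 and 4.63 at week 2 and 4.47 and 5.0 at 4 months. Cdc45 on the mLN arrays stood at 6.21, 6.82 and 6.02 at day 4 and 5.09, 4.69 and 4.94 at week 2. Cdc45, the helicase partner loaded at origin firing, did not overlap between day 4 mLN, day 4 lung and any other group. It rose by 1.08 ± 0.24 (adjusted p = 0.00603), fell by 0.98 ± 0.21 in the lung by week 2 (adjusted p = 0.0235) and by 1.44 ± 0.21 in the mLN (adjusted p = 0.000705), and stood 0.92 ± 0.21 higher in mLN at day 4 (adjusted p = 0.0261). Gins3 stood at 5.66 and 5.63 in naive lung, 5.57, 4.93 and 5.13 at day 4, 5.04, 5.18 and 5.46 at week 2 and 4.30 and 4.69 at 4 months. Gins3 on the mLN arrays stood at 6.17, 5.97 and 6.02 at day 4 and 5.52, 5.92 and 5.65 at week 2. Gins3 went another way from its complex partners: its naive arrays lay above all other lung arrays, its day 4 difference from them was -0.43 ± 0.21 (not called), and at 4 months it was 1.15 ± 0.23 lower than in naive lung (adjusted p = 0.0198). Gins1 rose by 0.92 ± 0.21 at day 4 and fell by 0.98 ± 0.19 in the lung and 1.07 ± 0.19 in the mLN by week 2. All its group means except that of day 4 mLN lay under the dim level, so none of these changes is shown to be between signals above background. Mcm10, which helps to activate the helicase, differed by 0.11 ± 0.20 between day 4 and naive lung (not called) and fell by 1.02 ± 0.18 in the mLN by week 2 (adjusted p = 0.00315). Gins2 was called for its fall of 0.91 ± 0.28 from day 4 to 4 months, and Gins4 in no comparison.

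The sliding clamp gene Pcna was called in no comparison. Pcna stood at 8.99 and 9.11 in naive lung, 9.28, 9.04 and 9.33 at day 4, 9.34, 9.41 and 9.29 at week 2 and 9.29 and 9.30 at 4 months. Pcna on the mLN arrays stood at 9.55, 9.84 and 9.59 at day 4 and 9.40, 9.26 and 9.48 at week 2. The range of its group means was 0.61, its day 4 lung arrays overlapped those of week 2, and its day 4 difference from naive lung was 0.17 ± 0.17. Its difference between mLN and lung at day 4 was 0.44 ± 0.15 (95% interval 0.13 to 0.76, adjusted p = 0.193). Rfc5, a clamp loader subunit, rose by 0.92 ± 0.22 at day 4 (adjusted p = 0.0102), while the naive arrays of Rfc3, another subunit, stood at 5.08 and 3.43 and its difference of 0.80 ± 0.36 was not called.

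Of 8 polymerase and primase genes, Pola1, Pole and Pole2 rose at day 4 in the lung. The calls between mLN and lung at day 4, and between week 2 and day 4 in the mLN, were of Pola1, Pole and Pole2 too, comparisons that share the day 4 arrays. Pola1 stood at 5.18 and 5.14 in naive lung, 5.70, 6.02 and 5.97 at day 4, 5.69, 5.41 and 5.49 at week 2 and 5.07 and 5.23 at 4 months. Pola1 on the mLN arrays stood at 6.41, 6.75 and 6.73 at day 4 and 5.77, 5.73 and 5.77 at week 2. Pola1, the catalytic subunit of polymerase alpha, rose by 0.73 ± 0.18 (adjusted p = 0.0096), and its day 4 mLN arrays lay 0.73 ± 0.16 above those of day 4 lung on average, with no overlap. Pole stood at 3.40 and 3.92 in naive lung, 4.95, 4.97 and 4.83 at day 4, 3.99, 4.54 and 4.09 at week 2 and 4.06 and 3.64 at 4 months. Pole on the mLN arrays stood at 5.76, 6.41 and 6.15 at day 4 and 4.62, 4.70 and 4.69 at week 2. Pole, the catalytic subunit of the leading-strand polymerase, rose by 1.26 ± 0.23 in the lung (adjusted p = 0.00156), was 1.19 ± 0.20 higher in the mLN (adjusted p = 0.003) and fell there by 1.44 ± 0.20 (adjusted p = 0.000466). A second Pole probe set, of lower mean signal over all arrays, went from 4.01 to 3.23 between naive and day 4 lung, so the direction of that change differed between the probe sets. In naive lung this second set was the brighter, as the set used had a mean of 3.66 there, under the dim level. Pole2 stood at 3.42 and 3.31 in naive lung, 4.56, 4.09 and 4.44 at day 4, 3.32, 3.27 and 3.36 at week 2 and 3.48 and 3.69 at 4 months. Pole2 on the mLN arrays stood at 5.85, 5.71 and 4.87 at day 4 and 3.60, 4.13 and 4.12 at week 2. Pole2, its second subunit, fell by week 2 by 1.04 ± 0.23 in the lung, to arrays that overlapped the naive ones, and by 1.53 ± 0.23 in the mLN.

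Primase and the other polymerase subunits were less uniform. Prim1 stood at 3.50 and 6.09 in naive lung, 6.20, 5.83 and 6.04 at day 4, 5.47, 5.62 and 5.40 at week 2 and 4.05 and 4.56 at 4 months. Prim1 on the mLN arrays stood at 6.97, 7.49 and 6.51 at day 4 and 5.47, 5.60 and 5.40 at week 2. The naive replicates of Prim1, the primase catalytic subunit, lay 2.59 apart, more than for any other of the 45 genes, and its day 4 difference from naive lung of 1.23 ± 0.48 was not called (adjusted p = 0.0883). From day 4 to 4 months it fell by 1.72 ± 0.48 (adjusted p = 0.0155). Pola2 stood at 5.33 and 6.61 in naive lung, 6.00, 6.03 and 6.06 at day 4, 5.68, 5.73 and 5.81 at week 2 and 4.24 and 4.91 at 4 months. Pola2 on the mLN arrays stood at 6.04, 6.26 and 6.58 at day 4 and 5.89, 5.66 and 6.16 at week 2. Pola2, the regulatory subunit of polymerase alpha, differed by 0.06 ± 0.30 between day 4 and naive lung, which was not called, and was lower at 4 months by 1.40 ± 0.32 than in naive lung and by 1.16 ± 0.30 than at week 2. Prim2, Pold1 and Pold2 were called in no comparison, with differences between day 4 and naive lung of -0.34 ± 0.24, -0.21 ± 0.24 and 0.88 ± 0.30.

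In Okazaki fragment processing and single-strand binding, Lig1 moved and Fen1 did not pass. Fen1 stood at 4.72 and 4.80 in naive lung, 5.10, 4.99 and 5.09 at day 4, 5.26, 4.94 and 4.99 at week 2 and 4.86 and 4.19 at 4 months. Fen1 on the mLN arrays stood at 5.33, 5.16 and 5.35 at day 4 and 5.35, 5.18 and 5.07 at week 2. Fen1, the flap nuclease, had a range of group means of 0.75, with a difference between day 4 and naive lung of 0.30 ± 0.20 and a difference between the tissues at day 4 of 0.22 ± 0.18, neither called. Lig1, the ligase that seals the fragments, rose by 0.72 ± 0.18 at day 4 (adjusted p = 0.0129) and fell by 1.03 ± 0.16 from day 4 to week 2 in the mLN (adjusted p = 0.00133). Rpa1, the large subunit of the single-strand binding protein RPA, fell by 0.95 ± 0.28 from day 4 to 4 months, and Rpa2, its middle subunit, was called in no comparison.

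Among the nucleotide supply genes, Rrm2 had, on the probe set used, the largest change of the 45 genes from naive to day 4 lung and from day 4 to week 2 in both tissues. Of the 5, Rrm1, Rrm2, Tyms and Tk1 rose at day 4 in the lung, and the mean of Dut was higher without a call. Rrm2 stood at 4.88 and 3.72 in naive lung, 7.69, 7.18 and 6.89 at day 4, 4.44, 4.21 and 4.69 at week 2 and 4.11 and 4.51 at 4 months. Rrm2 on the mLN arrays stood at 8.67, 9.20 and 8.24 at day 4 and 5.64, 5.34 and 5.03 at week 2. Rrm2, the S phase subunit of ribonucleotide reductase, had the widest range of group means of the 45 genes, 4.40. It was 7.73-fold higher at day 4 than in naive lung (2.95 ± 0.34, adjusted p = 3.18e-05), a further 2.73-fold higher in day 4 mLN than in day 4 lung (1.45 ± 0.30, adjusted p = 0.0135), and fell 7.0-fold in the lung (-2.81 ± 0.30) and 10.3-fold in the mLN (-3.36 ± 0.30) by week 2. The second Rrm2 probe set moved in the same directions, by 0.97, 1.32 and -2.31 for day 4 lung against naive, mLN against lung at day 4 and week 2 against day 4 mLN. The first place of Rrm2 in change and in range rests on the set used. On the second set its rise at day 4 in the lung was smaller than that of Tyms. Its falls by week 2, in the lung from 5.28 to 3.86, were smaller there than those of E2f8. Tyms stood at 4.16 and 4.25 in naive lung, 6.26, 5.86 and 5.99 at day 4, 5.16, 4.88 and 5.28 at week 2 and 4.84 and 5.35 at 4 months. Tyms on the mLN arrays stood at 6.94, 6.58 and 6.78 at day 4 and 5.83, 5.98 and 5.53 at week 2. Tyms, thymidylate synthase, rose by 1.83 ± 0.21 at day 4 (adjusted p = 3.45e-05), and at week 2 all 3 lung arrays were still above the naive arrays, by 0.90 ± 0.21 (adjusted p = 0.014). Its mean at 4 months was 0.89 ± 0.23 above naive, which was not called (adjusted p = 0.0582). Rrm1, the large reductase subunit, rose by 0.87 ± 0.25, and Tk1, thymidine kinase of the salvage route, by 1.12 ± 0.29, with naive arrays of Tk1 at 6.56 and 5.12. Dut, which removes dUTP, differed by 0.75 ± 0.26 between day 4 and naive lung (adjusted p = 0.0571), which was not called, and fell by 1.23 ± 0.26 from day 4 to 4 months.

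**Figure D3:**
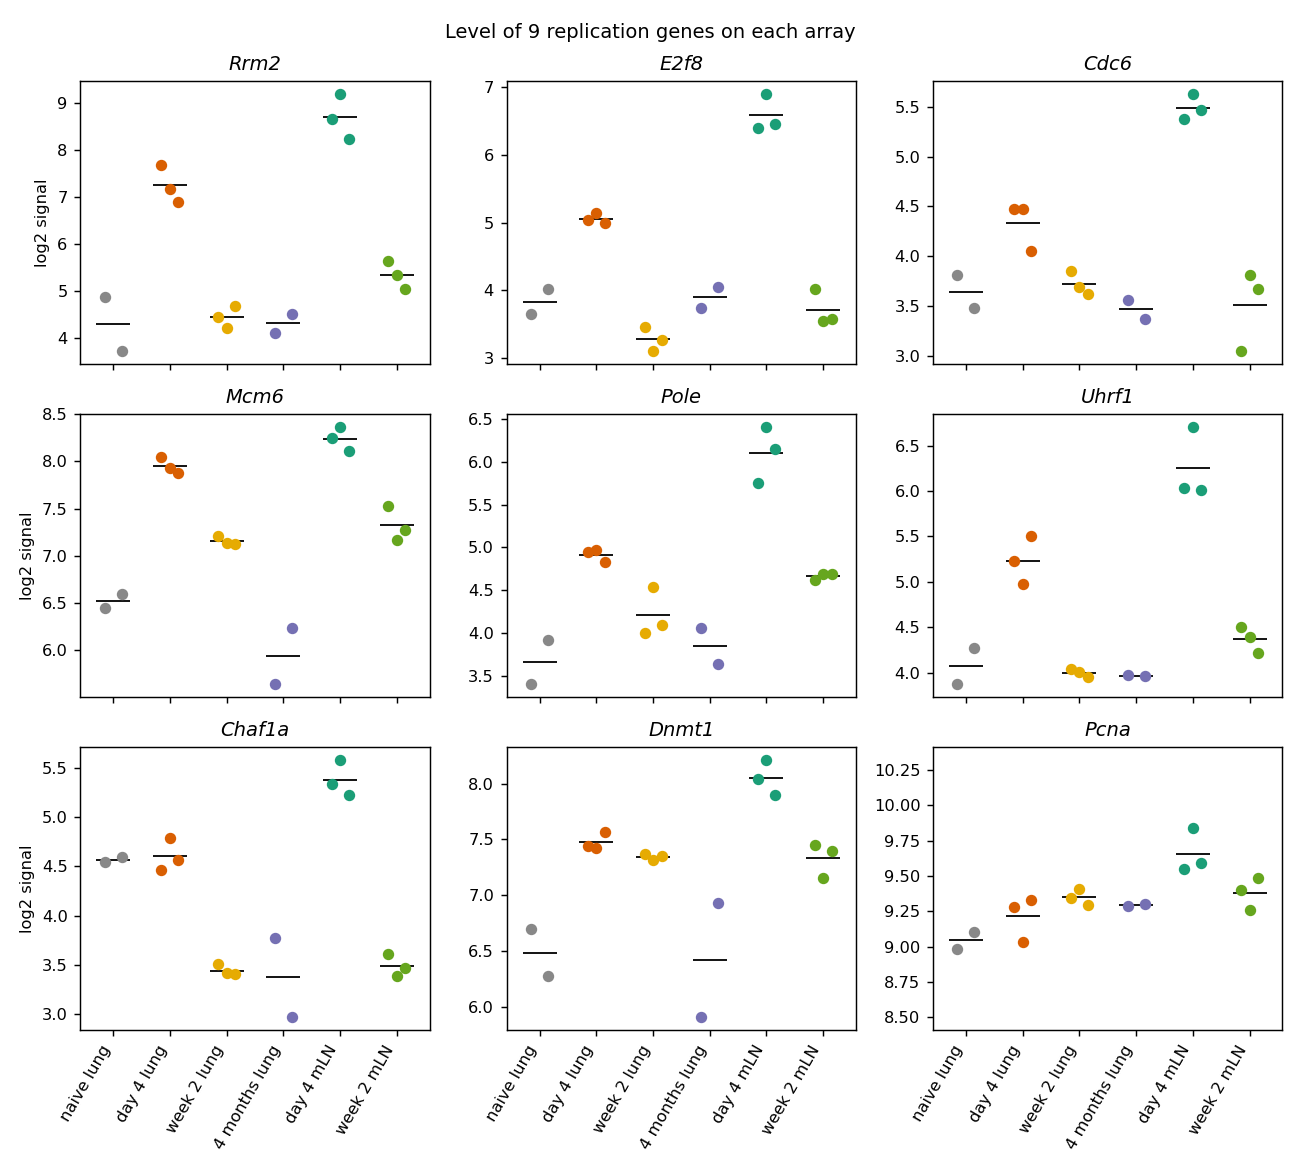
Log2 signal (vertical axis, a scale of its own for each gene) of 9 replication genes on every array, by group (horizontal axis), with a bar at the group mean. Rrm2, E2f8, Cdc6, Pole and Uhrf1 have their highest points in day 4 mLN, Chaf1a is lower at week 2 and 4 months than in naive lung, Dnmt1 is above naive lung at day 4 and week 2, and the Pcna groups span 0.61.

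Chromatin genes split in their course through the lung samples. Chaf1a stood at 4.54 and 4.60 in naive lung, 4.47, 4.78 and 4.56 at day 4, 3.51, 3.41 and 3.40 at week 2 and 3.77 and 2.97 at 4 months. Chaf1a on the mLN arrays stood at 5.33, 5.58 and 5.22 at day 4 and 3.61, 3.39 and 3.47 at week 2. Chaf1a, the large subunit of chromatin assembly factor 1, differed by 0.04 ± 0.21 between day 4 and naive lung (95% interval -0.41 to 0.49, not called) and was lower at week 2 by 1.12 ± 0.21 (adjusted p = 0.00424) and at 4 months by 1.20 ± 0.23 (adjusted p = 0.0158) than in naive lung. In day 4 mLN it was 0.77 ± 0.19 above day 4 lung (adjusted p = 0.0393), and it fell there by 1.89 ± 0.19 by week 2. Uhrf1 stood at 3.87 and 4.27 in naive lung, 5.23, 4.97 and 5.50 at day 4, 4.04, 4.01 and 3.95 at week 2 and 3.98 and 3.96 at 4 months. Uhrf1 on the mLN arrays stood at 6.03, 6.70 and 6.01 at day 4 and 4.51, 4.39 and 4.21 at week 2. Uhrf1, which recruits the maintenance methyltransferase to newly copied DNA, rose by 1.16 ± 0.22 (adjusted p = 0.00243), was 1.02 ± 0.20 higher in the mLN, and by week 2 fell by 1.23 ± 0.20 in the lung and 1.88 ± 0.20 in the mLN. Dnmt1 stood at 6.69 and 6.28 in naive lung, 7.44, 7.42 and 7.56 at day 4, 7.37, 7.31 and 7.35 at week 2 and 5.91 and 6.93 at 4 months. Dnmt1 on the mLN arrays stood at 8.04, 8.21 and 7.90 at day 4 and 7.45, 7.15 and 7.40 at week 2. Dnmt1, that methyltransferase, rose by 0.99 ± 0.24 at day 4 and was also higher at week 2, by 0.86 ± 0.24, than in naive lung (adjusted p = 0.0339), then fell by 0.92 ± 0.24 to 4 months (adjusted p = 0.0177). Chaf1b, the middle subunit of the same assembly factor, was called in no comparison, and its day 4 difference from naive lung was -0.35 ± 0.17.

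Of the repair genes, Brca1 rose at day 4 and Exo1 was called in no comparison. Brca1 stood at 3.34 and 3.03 in naive lung, 4.65, 3.83 and 4.43 at day 4, 3.51, 3.55 and 3.66 at week 2 and 3.50 and 3.02 at 4 months. Brca1 on the mLN arrays stood at 5.32, 5.16 and 4.69 at day 4 and 3.72, 3.20 and 3.66 at week 2. Brca1, which protects stalled forks and serves homologous recombination, rose by 1.12 ± 0.26 (adjusted p = 0.00787) and fell by 1.53 ± 0.23 in the mLN by week 2 (adjusted p = 0.000848), while its day 4 difference between mLN and lung of 0.75 ± 0.23 was not called (adjusted p = 0.131). Exo1, an exonuclease of mismatch repair, stood at 4.60, 3.89 and 3.25 on the day 4 lung arrays, the widest spread of any member in that group.

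Cyclin E1 and the E2F factors differed from each other. Ccne1 stood at 4.52 and 4.58 in naive lung, 4.42, 4.08 and 4.89 at day 4, 4.10, 4.45 and 4.14 at week 2 and 4.34 and 4.75 at 4 months. Ccne1 on the mLN arrays stood at 5.03, 4.75 and 4.77 at day 4 and 3.82, 3.85 and 3.68 at week 2. Ccne1, the cyclin of the G1 to S transition, differed by -0.09 ± 0.22 between day 4 and naive lung, which was not called, and in the mLN it fell by 1.07 ± 0.20 from day 4 to week 2 (adjusted p = 0.00592), where its 3 arrays lay below all others. E2f1 stood at 4.48 and 3.84 in naive lung, 4.50, 4.41 and 4.57 at day 4, 4.04, 4.01 and 4.10 at week 2 and 4.41 and 4.02 at 4 months. E2f1 on the mLN arrays stood at 4.67, 4.26 and 4.52 at day 4 and 4.23, 3.94 and 4.30 at week 2. E2f1, an activating E2F, had overlapping arrays in naive and day 4 lung and in lung and mLN at day 4, and was called in no comparison, with 0.33 ± 0.21 at day 4 in the lung and -0.01 ± 0.19 between the tissues. E2f8 stood at 3.65 and 4.02 in naive lung, 5.04, 5.15 and 4.99 at day 4, 3.46, 3.11 and 3.27 at week 2 and 3.74 and 4.06 at 4 months. E2f8 on the mLN arrays stood at 6.40, 6.90 and 6.46 at day 4 and 4.02, 3.55 and 3.57 at week 2. E2f8, a repressor E2F made late in G1 and in S phase, rose 2.34-fold in the lung at day 4 (1.23 ± 0.21, adjusted p = 0.00113) and was 2.88-fold higher in day 4 mLN than in day 4 lung (1.53 ± 0.19, adjusted p = 0.000201). It fell by week 2, with differences of -1.78 ± 0.19 in the lung and -2.87 ± 0.19 in the mLN, but both week 2 means lie under the dim level, so no fold is given. Its week 2 lung arrays lay below the naive arrays (-0.55 ± 0.21, adjusted p = 0.114, not called).

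Across the 45 genes, 12 were called in none of the 10 tests: Orc1, Orc6, Gins4, Pcna, Prim2, Pold1, Pold2, Fen1, Rpa2, Chaf1b, Exo1 and E2f1. Their group means ranged over 0.31 to 1.52, and those of the other 33 over 0.78 to 4.40. Chaf1a and Mcm6 were called in 6 comparisons each, more than any other member. The share of all genes called in none, or in that many, is not given here. Between day 4 and 4 months in the lung alone, 16.6% of all genes were called lower and 9.02% higher. These counts therefore only describe the members and are not read as particular to them. As a description, with 6 group means that share arrays across genes, the profile of a gene correlated with the mean of the other members at r = 0.989 for Pola1, 0.984 for Pole and 0.980 for Rrm1, the highest values, and at 0.28 for Chaf1b and 0.32 for Ccne1, the lowest.

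The rise at day 4 in the lung, then, covered 21 genes, among them 6 of 10 licensing, 2 of 6 helicase activation, 3 of 8 polymerase and primase and 4 of 5 nucleotide supply genes. Of the 10 members with E2F letters 7 rose and of the 28 other measured members with a promoter 11 rose, with medians of 0.79 and 0.61. For 27 genes the lowest day 4 lung array lay above the highest naive array, as it did for 22.0% of all genes. Of 56 other replication genes, 19 rose and 0 fell, with the largest rises in Rpa3, the small RPA subunit (2.66 ± 0.42), Ccna2, cyclin A2 (2.54 ± 0.27), Tipin, of the fork protection complex (2.18 ± 0.34), and Rnaseh2b, a subunit of RNase H2 (1.85 ± 0.33). Of 13 mitosis genes such as Mki67 and Top2a, 12 rose, with a median of 1.48. With array weights, which give noisy arrays less say, 11 of the 21 were called, and without the 3 lung arrays highest in macrophage markers, which leaves 1 day 4 lung array assumed to vary like the other groups, 5 were, with medians of 0.73 and 0.66. All 21 stayed above 0 without those arrays, with Cdc6 at 0.41 (adjusted p = 0.538) and Mcm5 at 1.17 (adjusted p = 0.0258) moved by over 1.5 times. Quantile normalization repeated kept 13 of the 21 calls and lost Mcm4, Mcm5, Rfc5, Pola1, Lig1, Rrm1, Tk1 and Dnmt1. A fit of the compared groups alone also kept 13. The naive arrays carried the high T cell marker values and the narrow signal spread given above, and their part in these differences was not tested.

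From day 4 to week 2 in the lung, the 9 genes that fell were Rrm2, E2f8, Uhrf1, Chaf1a, Pole2, Gins1, Cdc45, Tyms and Mcm6, and in 27 of the 45 all week 2 arrays lay below all day 4 arrays, as in 11.9% of all genes. Of the 13 mitosis genes 11 fell, with a median of -1.59, and of the 56 other replication genes 6 fell, led by Ccna2 (-1.99 ± 0.24), Asf1b, a histone chaperone (-1.11 ± 0.25), Pold4, a subunit of polymerase delta (-1.10 ± 0.17), and E2f2 (-1.04 ± 0.23). Array weights gave 15 falls, and without the 3 arrays high in macrophage markers 1 member was called, with a median of -0.42. Leaving out day 4 lung replicate 1 gave 5 falls, and leaving out week 2 lung replicate 1 or 2 gave 4 or 5.

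Against the same naive arrays, with their high T cell markers, 4 genes were higher at week 2, Tyms, Mcm7, Dnmt1 and Mcm6 (0.64 ± 0.19), where 6.75% of all genes were higher, and 1 was lower, Chaf1a, where 2.87% were lower. As shares of 45 both counts are close to those of all genes. The median of the 45 was 0.19 against -0.04 over all genes. The 4 rises were not called with array weights, when the compared groups were fitted by themselves, or without the arrays high in macrophage markers, and the fall of Chaf1a was called in each. Without week 2 lung replicate 1, 2 or 3 the calls numbered 3, 2 and 2. Of the other replication genes 9 rose, led by Rpa3 (1.79 ± 0.42), Tipin (1.70 ± 0.34), Hells, a chromatin remodeller (1.44 ± 0.17), and Pole3, a subunit of polymerase epsilon (1.39 ± 0.21), and of the mitosis genes 2 rose.

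At 4 months, with T cell markers at 5.02 and 5.03 against 6.47 and 6.68 in the naive group, 0 of the 45 genes were higher than in naive lung, where 0.717% of all genes were, and 3 were lower, Pola2, Chaf1a and Gins3, where 1.25% were. The median was -0.09 against -0.02. Array weights gave 0 calls, as did fitting the compared groups by themselves, while Tyms was called higher with quantile normalization repeated (1.10 ± 0.23, adjusted p = 0.0189) and with dim genes left out (adjusted p = 0.0439). Without naive replicate 1 or 4-month replicate 2 the calls numbered 5, and with 1 array left in a group that array was assumed to vary like the others. Of the other replication genes Brca2 was higher (1.09 ± 0.23) and Topbp1, which helps origins fire, and Pold4 were lower (-0.90 ± 0.22 and -0.85 ± 0.21). Of the 13 mitosis genes 0 were called by limma, with 1 at an unadjusted p under 0.05, as were 3773 of all 22180 genes.

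From week 2 to 4 months 6 genes fell, Mcm6, Pola2, Dnmt1, Gins3, Mcm4 and Lig1, and 0 rose, where 11.5% of all genes fell and 4.85% rose, so that their share of 45 is close to that of all genes. The median was -0.34 against 0.02. The other replication genes fell in 16 of 56 cases, led by Rpa3 (-1.70 ± 0.42), Asf1a, a histone chaperone (-1.43 ± 0.26), Hells (-1.33 ± 0.17) and E2f5 (-1.13 ± 0.18), and the mitosis genes in 2 of 13. The count of the 45 was 11 with array medians centred and 3 with array weights, 2 without 4-month replicate 1, 3 without week 2 lung replicate 3 and 10 without 4-month replicate 2 or either naive array. Between day 4 and 4 months 31 genes fell and 0 rose, where 16.6% of all genes fell and 9.02% rose, with a median of -0.82 against 0.04. The largest falls were in Rrm2 (-2.94 ± 0.34), Mcm6 (-2.01 ± 0.19), Mcm3 (-1.72 ± 0.31) and Prim1 (-1.72 ± 0.48), and 27 of the 56 other replication genes fell too, led by Ccna2 (-2.96 ± 0.27), Rpa3 (-2.56 ± 0.42), Pold4 (-1.73 ± 0.19) and Hells (-1.58 ± 0.17). Without 4-month replicate 1 the falls numbered 13, with array weights 17, and without the arrays high in macrophage markers 7 at a median of -0.82, when the fall of Rfc3 was 0.74 (adjusted p = 0.402) and that of Rpa1 0.62 (adjusted p = 0.363).

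In the mLN all 45 group means were lower at week 2 than at day 4, against 11218 of all 22180 genes. Of the 45 differences 19 were called, Rrm2, E2f8, Cdc6, Chaf1a and Uhrf1 with the largest. For 34 genes all week 2 arrays lay below all day 4 arrays, as for 8.51% of all genes. By role, the calls were 4 of 10 licensing, 3 of 6 helicase activation, 0 of 3 clamp, 3 of 8 polymerase and primase, 1 of 4 flap, ligation and binding, 3 of 5 nucleotide supply, 2 of 4 chromatin, 1 of 2 repair and 2 of 3 cyclin E and E2F genes. All 13 mitosis genes fell, with a median of -3.15. Of the other replication genes 15 fell, led by Ccna2 (-4.47 ± 0.24), Ticrr, needed to load Cdc45 (-2.04 ± 0.21), E2f2 (-1.88 ± 0.23) and Asf1b (-1.80 ± 0.25). With array weights 25 of the 45 were called, the 19 among them, and leaving out 1 array at a time gave 17 to 23. Macrophage markers were low on all 6 mLN arrays, at 3.67 to 3.97.

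Between the tissues at day 4, the 12 genes that were higher in the mLN were E2f8, Rrm2, Pole, Cdc6, Pole2, Mcm5, Uhrf1, Cdc45, Gins3, Chaf1a, Mcm2 and Pola1, with differences of 0.73 to 1.53. For 33 of the 45 every mLN array lay above every lung array, as for 9.57% of all genes. By role, 3 of 10 licensing, 2 of 6 helicase activation, 3 of 8 polymerase and primase, 2 of 4 chromatin and 1 of 5 nucleotide supply genes were called, beside E2f8. All 13 mitosis genes were higher in the mLN, with a median of 1.70. Of the other replication genes 8 were higher, led by Ccna2 (2.39 ± 0.24), Ticrr (1.71 ± 0.21), Gmnn, the Cdt1 inhibitor geminin (1.16 ± 0.24), and Clspn, a fork checkpoint adaptor (0.96 ± 0.21), and Pold4 was lower (-0.68 ± 0.17). The macrophage marker mean was 4.49 to 5.83 in this lung group and 3.67 to 3.97 in the mLN. Without the 3 lung arrays highest in these markers, Cdc6 and E2f8 were called and the median over the 45 was 0.62. The 12 differences then ran from 0.60 to 1.81, and that of Mcm5 was 0.62 ± 0.24 (adjusted p = 0.468), over 1.5 times smaller than with them. Array weights gave 25 genes, and without day 4 lung replicate 2 or day 4 mLN replicate 2 the calls numbered 5 and 4. A fit of these groups alone kept 7 of the 12 calls and added Mcm10. Cdc45, Gins3, Pola1, Pole2 and Uhrf1 were not called in that fit.

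**Figure D4:**
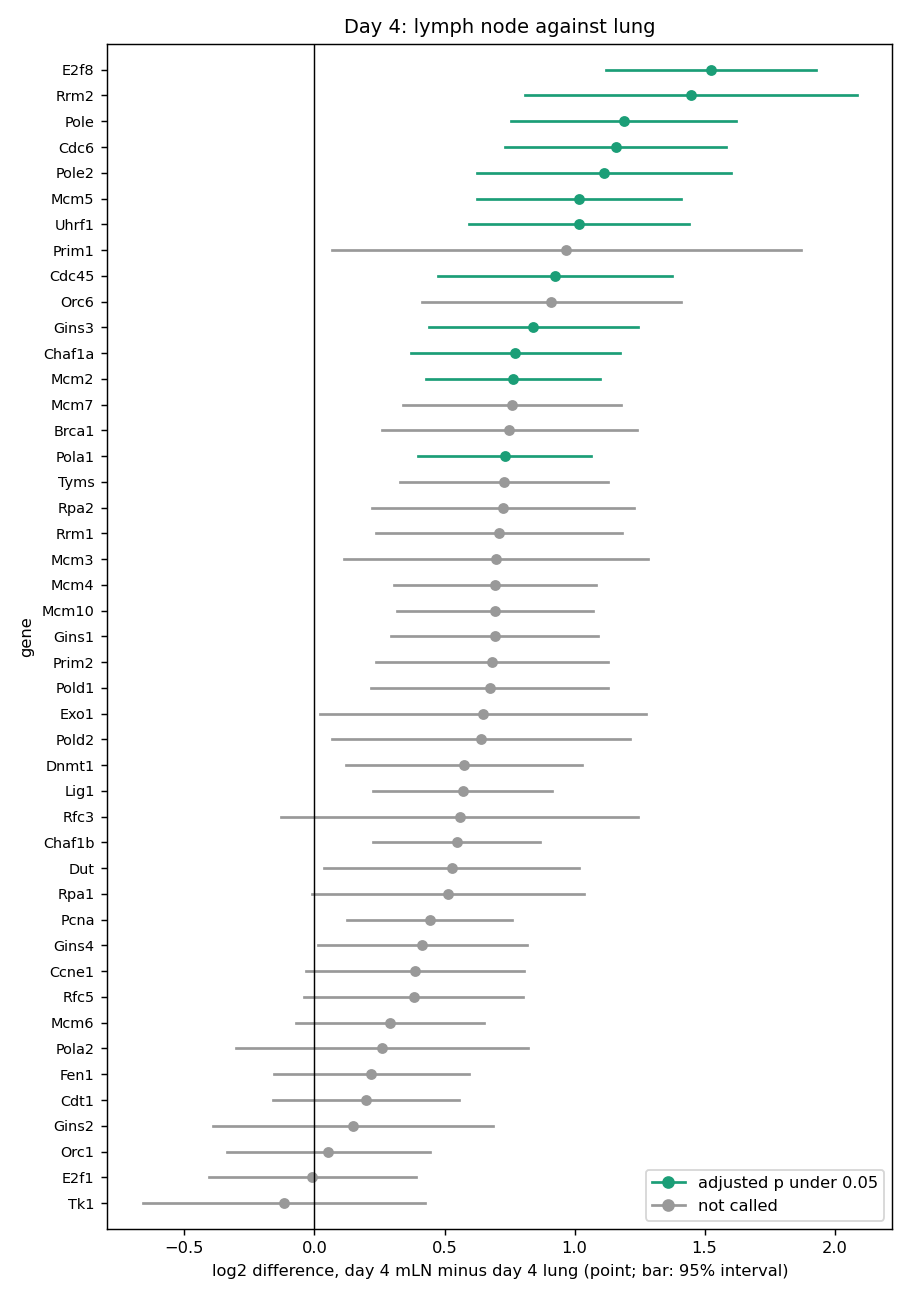
Difference in log2 signal between day 4 mLN and day 4 lung (horizontal axis; point: difference of group means of 3 arrays each; bar: 95% interval from the limma fit) for the 45 measured replication genes (vertical axis, in order of size). The 12 genes in green had an adjusted p under 0.05, from E2f8 at 1.53 down to Pola1 at 0.73, and Tk1 at -0.12 and E2f1 at -0.01 are the points below 0.

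Whether the fall from day 4 to week 2 was larger in the mLN than in the lung was tested as an interaction. In limma 0 of the 45 genes were called, where 0.180% of all genes were. An unadjusted p under 0.05 was found for 12 of the 45 and for 1414 of all 22180 genes. The median difference of the 2 falls was -0.41 against -0.01. The member nearest the threshold was Cdc6, at -1.37 ± 0.28 (adjusted p = 0.0699), followed in size by E2f8 at -1.09 ± 0.27 (adjusted p = 0.14), and Rrm2 gave -0.55 ± 0.43. Cdc6 was called with dim genes left out, with array weights and when the 4 groups were fitted by themselves, and E2f8 with array weights. Leaving dim genes out kept all 45 members and left the Cdc6 difference at -1.37. The week 2 means of Cdc6 and E2f8 lie under the dim level in both tissues. Their falls are therefore not shown to end above background, and the sizes of these falls cannot be compared closely. Ccna2, of the other replication genes, fell more in the mLN (-2.48 ± 0.34, adjusted p = 0.00423), as did 6 of the 13 mitosis genes. At week 2 the largest differences between mLN and lung, none called, were in Rrm2 (0.89 ± 0.30) and Rpa1 (0.77 ± 0.25). The mLN mean was the higher for 36 of the 45 genes, against 10779 of all 22180 genes. The 45 genes were read on the same arrays, so that their directions are not independent. A second Rpa1 probe set had closer week 2 means, 6.26 in the mLN and 6.04 in the lung, against 6.61 and 5.84 for the set used.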

How the data were processed

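Total RNA of ILC2s was measured on 16 Affymetrix arrays. The deposited values are log2 signals, 1 for each of 41345 probe sets and array, and the submitters' processing notes name Affymetrix Expression Console and RMA for the steps before deposit. RMA includes quantile normalization, which hides changes in the total RNA of a cell. Probe sets with 1 gene symbol (23521) were used, with the highest-mean probe set of a gene, which left 22180 genes. All arrays entered 1 linear model in limma 3.58.1 (R 4.3.3) with a mean for each group, no replicate block, trend or robust option. Differences are given ± limma's standard error, tests are two-sided, p values were adjusted by Benjamini-Hochberg over all genes, and genes were called at 0.05. The procedure was tested on simulated data. The members, the role groups, the 59 other replication genes (56 measured) and the marker lists were chosen with earlier results of these data known, so their direction has no independent support from these arrays. Each member is accounted for. Values of every array are given for a fixed choice of genes and for up to 5 called members of largest change in each comparison, and of the other replication genes up to 4 called in each direction are named. The number of arrays limits the precision, and p values measure the spread between the labelled replicates. Promoter letters were searched in Python 3.11.15 in the RefSeq table. Alternatives were array medians centred, repeated quantile normalization, dim genes left out, limma's trend with its robust option, array weights, separate fits of the compared groups, a block for the replicate number, the mean over probe sets, an added size threshold of 1 (log2), and arrays left out.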

Additional observations from a re-analysis of the deposited data

How the results depend on the processing

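Counts are of the 45 measured members called in the comparison named. Shares of all genes called are given for the main fit only. A count that moves under an alternative is therefore not shown to be particular to the members. With a log2 change of at least 1 required as well, the counts were 11 for day 4 against naive lung, 1 for week 2 against naive lung, 5 for week 2 against day 4 lung, 2 for 4 months against week 2 lung, 15 for 4 months against day 4 lung and 7 for mLN against lung at day 4. Array weights gave, in the same order, 11, 1, 15, 3, 17 and 25, with 0 for 4 months against naive lung, 4 for mLN against lung at week 2 and 2 for the interaction. In fits of the compared groups alone, week 2 against naive lung gave 1, 4 months against naive 0, 4 months against week 2 lung 3 and the interaction 1. Such fits kept 13 of the 21 calls for day 4 against naive lung and added 1. They kept 21 of the 31 for 4 months against day 4, and 7 of the 12 for mLN against lung at day 4, with 1 added there. All 9 falls in the lung and all 19 in the mLN by week 2 were kept, with 2 added in each. Where week 2 against naive lung gave 1, that gene was Chaf1a, which fell, so the balance of 4 higher and 1 lower turned. Quantile normalization repeated gave 3 for week 2 against naive lung, 3 for 4 months against week 2 and 20 for 4 months against day 4. For day 4 against naive lung it kept 13 calls, lost 8 and added 1, and for mLN against lung at day 4 it kept 11 and lost 1. Array medians centred gave 11 for 4 months against week 2, and dim genes left out, which kept all 45 members, gave 1 for the interaction. Without the 3 lung arrays highest in macrophage transcripts the counts were 5, 1, 1, 1, 7 and 2 in the order of the first list. The causes were not tested, except that the threshold on size can only lower a count.

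Leaving out 1 array at a time gave 15 to 22 for day 4 against naive lung, 2 to 6 for week 2 against naive, 2 to 5 for 4 months against naive, 4 to 10 for week 2 against day 4 lung, 2 to 10 for 4 months against week 2, 13 to 31 for 4 months against day 4, 17 to 23 for week 2 against day 4 mLN, 4 to 16 for mLN against lung at day 4, and 0 to 0 for both mLN against lung at week 2 and the interaction. The labels do not say whether same-numbered lung and mLN arrays come from the same mice, and the main fit did not pair them. The deviations of same-numbered day 4 lung and mLN arrays correlated at 0.09, 0.03 and 0.18, which cannot settle the question. With the replicate number as a block the counts were 22, 4, 3, 9, 7, 28, 19, 11, 0 and 0 in the order of this paragraph. No called change of a member turned direction under an alternative. The naive and 4-month groups of 2 arrays, with their narrower signal spread, limit the comparisons that use them.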
